A study of Arabidopsis thaliana with 6 samples.

Results

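SAUR (small auxin-up RNA) genes encode short plant proteins, and 49 of them are described here across 3 groups of etiolated Arabidopsis thaliana seedlings. They were chosen by locus name, from a list of SAUR genes, out of 26185 loci that had a read in at least 1 library. All 49 had a read, and 48 had enough reads to be tested among 21326 genes.

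SAUR genes are named for messages that appear within minutes of auxin treatment in elongating tissue. Their messages are short-lived. Several SAUR proteins bind and inhibit PP2C clade D phosphatases, which remove an activating phosphate from the plasma membrane proton pumps, so that the pumps stay active and the cell wall loosens. Many SAUR genes have no introns and lie in tandem arrays, and besides auxin they respond to brassinosteroid, light, temperature and ethylene.

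Seeds were imbibed for 3 days at 4 °C and given a few hours of light, and the seedlings then stayed in darkness at 22 °C until they were harvested whole at 3 days. Messenger RNA was sequenced from 2 biological repeats per group. Col_Kyn stands for wild-type Col-0 seedlings on MS mineral medium with kynurenine, a known inhibitor of the aminotransferases TAA1 and TAR that begin the main route to the auxin IAA. Its dose is 25 mM in the labels, and whether this unit is right could not be checked. wei8tar2_MS is a line on MS, in the Col-0 background, that is homozygous for a mutation in WEI8 (TAA1) and heterozygous for a mutation in TAR2, and which of its progeny were pooled is not stated in the labels. Col_MS is untreated wild-type Col-0 on MS, to which both were compared. In each pair of values below, replicate 1 precedes replicate 2, and levels are CPM, that is counts divided by library size after TMM scaling.

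Over the 6 libraries 69094 uniquely mapped reads fell on the members, and a count of 0 allows up to 0.0961 to 0.172 CPM, depending on the library and for counting error only. Both mutated genes were lower in wei8tar2_MS than in the other groups, and the labels give no level to expect. TAA1 had 38.4 and 41.5 CPM in Col_Kyn, 7.89 and 8.36 in wei8tar2_MS, and 37.8 and 38.7 in Col_MS. TAR2 had 7.08 and 6.29 CPM in Col_Kyn, 2.90 and 2.01 in wei8tar2_MS, and 10.1 and 8.11 in Col_MS. These were bulk samples of whole seedlings, in which fewer cells of a type and less RNA per cell cannot be told apart. PORA and PORB, markers of dark-grown cotyledons, summed to 2509 to 3631 CPM over the 6 libraries, and 5 markers of root meristem, root cap and root hair summed to 48.7 and 37.7 CPM in Col_Kyn, 47.6 and 43.9 in wei8tar2_MS, and 75.7 and 58.0 in Col_MS.

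The members fall into 5 tandem clusters, named here by the start of their locus names, and 22 other loci. In TAIR10.1 the AT5G18 cluster (SAUR19 to SAUR24, 6 genes) covers 21.5 kb of chromosome 5 from 5962773 to 5984308. The AT1G29 cluster (SAUR61 to SAUR66, AT1G29490 and AT1G29510, 8 genes) covers 21.9 kb of chromosome 1 from 10301377 to 10323239. The AT4G34 cluster (SAUR50 and SAUR1 to SAUR5, 6 genes) lies on chromosome 4 from 16582183 to 16599568, the AT4G38 cluster (SAUR13 to SAUR16, 4 genes) on chromosome 4 from 18121526 to 18131284, and the AT2G21 cluster (SAUR6, SAUR7 and SAUR12, 3 genes) on chromosome 2 from 9083906 to 9090052. The predicted proteins have 86 to 189 residues, and the coding sequence lies in 1 exon in 48 members and in 2 exons in SAUR11. Coordinates of single loci given below are of the same assembly.

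Some copies within 2 of these clusters, AT5G18 and AT1G29, share stretches of sequence, and only uniquely mapped reads were counted. The first 54 coding bases of the 6 AT5G18 genes are shown for their likeness, and differ at 8 positions. Capitals mark the bases that differ from the most frequent base at their position; at 1 position the genes are tied, 3 against 3, and the base of SAUR21, SAUR22 and SAUR23 is the one in capitals. The stretches come from the minus strand at chr5:5963252-5963305 (SAUR19), chr5:5966527-5966580 (SAUR20) and chr5:5974910-5974963 (SAUR22), and from the plus strand at chr5:5968527-5968580 (SAUR21), chr5:5976030-5976083 (SAUR23) and chr5:5983840-5983893 (SAUR24), in the RefSeq TAIR10.1 genome.
SAUR19: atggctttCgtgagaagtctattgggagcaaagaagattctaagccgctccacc
SAUR20: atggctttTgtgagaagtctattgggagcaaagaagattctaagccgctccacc
SAUR21: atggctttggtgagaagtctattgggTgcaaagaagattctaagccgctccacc
SAUR22: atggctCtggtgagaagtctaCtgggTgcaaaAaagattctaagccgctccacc
SAUR23: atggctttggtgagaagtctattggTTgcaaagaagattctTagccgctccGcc
SAUR24: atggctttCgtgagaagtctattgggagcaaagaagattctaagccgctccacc
SAUR19 and SAUR24 are identical over this stretch, and their whole coding sequences, at 95.2% identity, are the most alike of the cluster. Coding identity over the 15 pairs ran from 87.7% to 95.2%.

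In the AT1G29 cluster identity was wider, from 45.8% to 90.05%, and SAUR63 and AT1G29510 were the most alike. A stretch of 90 coding bases near the start of SAUR62, SAUR63 and AT1G29510 shows the 3 genes with the fewest unique bases; capitals mark departures from the base that most of the 3 share. The stretches lie on the minus strand at chr1:10303131-10303220 (SAUR62) and chr1:10304904-10304993 (SAUR63) and on the plus strand at chr1:10322689-10322778 (AT1G29510) of TAIR10.1.
SAUR62: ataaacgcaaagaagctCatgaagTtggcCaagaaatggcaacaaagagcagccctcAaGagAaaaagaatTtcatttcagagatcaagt
SAUR63: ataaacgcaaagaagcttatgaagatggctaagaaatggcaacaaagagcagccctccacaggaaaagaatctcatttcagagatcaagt
AT1G29510: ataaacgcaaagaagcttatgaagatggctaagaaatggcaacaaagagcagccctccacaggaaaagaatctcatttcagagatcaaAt
SAUR63 and AT1G29510 differ here by the 1 base in capitals in the AT1G29510 line, while SAUR62 departs from both at 7.

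The share of each transcript made of windows found once in the genome shows what uniquely mapped reads could count. The read length is not given in the sources used here, so 4 window lengths were used. With windows of 36 bases the share was 57.7% for AT1G29510, 64.2% for SAUR63, 66.7% for SAUR19, 69.0% for SAUR62, 79.9% for SAUR24, 82.0% for SAUR20 and 88.2% for SAUR21, and these were the 7 members under 90%. With windows of 100 bases 2 members, SAUR63 and AT1G29510, stayed under 90%. The median over the 49 members was 100% at each length. The counts of these 7 genes may therefore be partial and are uncertain as levels. In addition, 8 members overlap an annotated neighbour (SAUR6, SAUR7, SAUR8, SAUR13, SAUR31, SAUR61, SAUR63 and SAUR64). SAUR6 and SAUR7 overlap each other on the same strand, and the other overlaps are antisense. No protocol step marks strand, so reads of either kind of overlap cannot be assigned. The overlap was largest in SAUR61 (684 bases, transcript of 723) and SAUR13 (433 bases, transcript of 485).

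**Figure D1:**
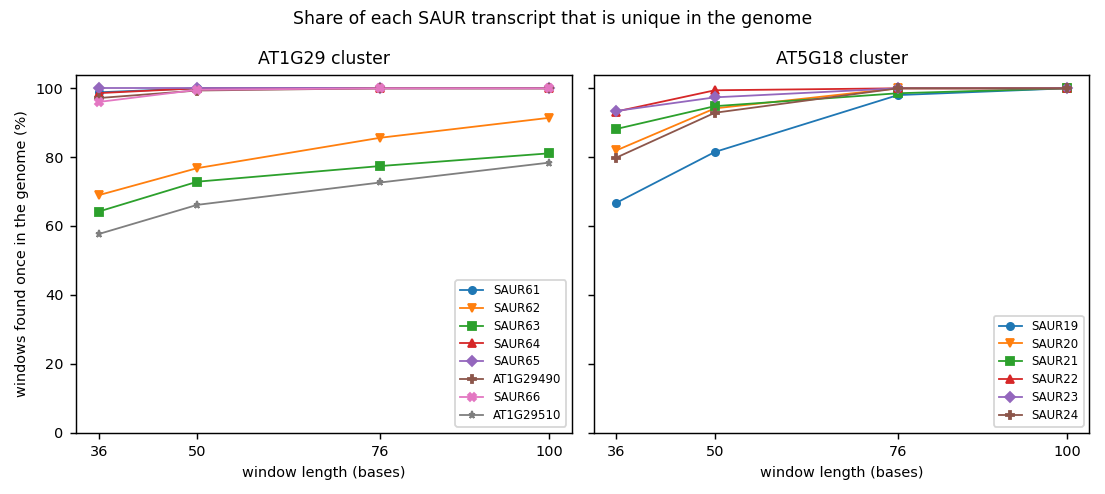
Percentage of windows of each annotated transcript that occur once in the genome (vertical axis), against window length in bases (horizontal axis), for the AT1G29 cluster (left) and the AT5G18 cluster (right), 1 line per gene. SAUR62, SAUR63 and AT1G29510 stay lowest in the left panel, and the AT5G18 genes come within 2 percentage points of 100% at 76 bases.

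Sequence before the annotated start was searched for short motifs on both strands. TGTCTC, the classical auxin response element bound by ARF factors, was in the 250 bases before 7 of 49 members (14.3%), against 10.9% of 27443 genes in the annotation. TGTCNN, which includes TGTCTC and the variant TGTCGG, was in 41 of 49 (83.7%), against 74.5% of all genes, and TGTCGG itself in SAUR63 alone among the members (2.04%, against 4.16%). CACGTG, the G-box bound by PIF and HY5 factors, was before SAUR59 alone (2.04%, against 6.49%). The windows before SAUR15, the best-known auxin-induced Arabidopsis SAUR gene, and SAUR66, which holds a pair of copies, are shown from the plus strand at chr4:18125807-18126056 and chr1:10320761-10321010 of TAIR10.1, with TGTCTC or its complement GAGACA in capitals.
SAUR15: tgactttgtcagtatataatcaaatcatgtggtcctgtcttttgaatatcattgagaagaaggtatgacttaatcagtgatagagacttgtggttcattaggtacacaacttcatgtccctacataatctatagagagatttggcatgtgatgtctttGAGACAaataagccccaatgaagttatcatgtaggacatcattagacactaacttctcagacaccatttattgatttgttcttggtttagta
SAUR66: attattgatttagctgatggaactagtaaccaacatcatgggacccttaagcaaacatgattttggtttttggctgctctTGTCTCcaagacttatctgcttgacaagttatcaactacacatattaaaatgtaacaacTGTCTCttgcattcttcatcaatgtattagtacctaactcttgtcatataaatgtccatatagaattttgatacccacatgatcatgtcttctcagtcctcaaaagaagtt
The motif begins 92 bases before the start of SAUR15, and 170 and 111 bases before that of SAUR66. A match describes letters in the window and is not a measured site.

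No SAUR member was called in any of the 3 comparisons at an adjusted p under 0.05, by edgeR or by DESeq2. In Col_Kyn against Col_MS, edgeR called 0 of 48 members, while 0.366% of all 21326 tested genes were called. At an unadjusted p under 0.05 there were 5 members (10.4%), against 17% of all genes. In wei8tar2_MS against Col_MS, 0 of 48 were called, against 1.08% of all genes, and 3 members (6.25%) had an unadjusted p under 0.05, against 20.6%. In wei8tar2_MS against Col_Kyn, 0 of 48 were called, against 0.0281%, and 2 members had an unadjusted p under 0.05 (4.17%, against 4.32%). DESeq2 also called 0 members in each, while it called 3.4%, 5.93% and 0.233% of all the genes it tested.

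The size of the differences was small in most members. The median log2 fold change was -0.01 in Col_Kyn over Col_MS (all tested genes -0.02), 0.05 in wei8tar2_MS over Col_MS (all -0.02) and 0.02 in wei8tar2_MS over Col_Kyn (all -0.01). The median absolute log2 fold change was 0.18, 0.25 and 0.22 in the same order, beside 0.20, 0.21 and 0.11 for all tested genes. The 95% interval lay within a 2-fold change in either direction for 35, 32 and 35 of the 48 members, so for the remaining members a change of 2-fold was not outside the interval. The comparisons with Col_MS share its libraries, and leaving out one of them moved the medians to both sides of 0: without Col_MS replicate 1 the median was -0.17 in Col_Kyn and -0.11 in wei8tar2_MS, and without Col_MS replicate 2 it was 0.23 and 0.29.

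**Figure D2:**
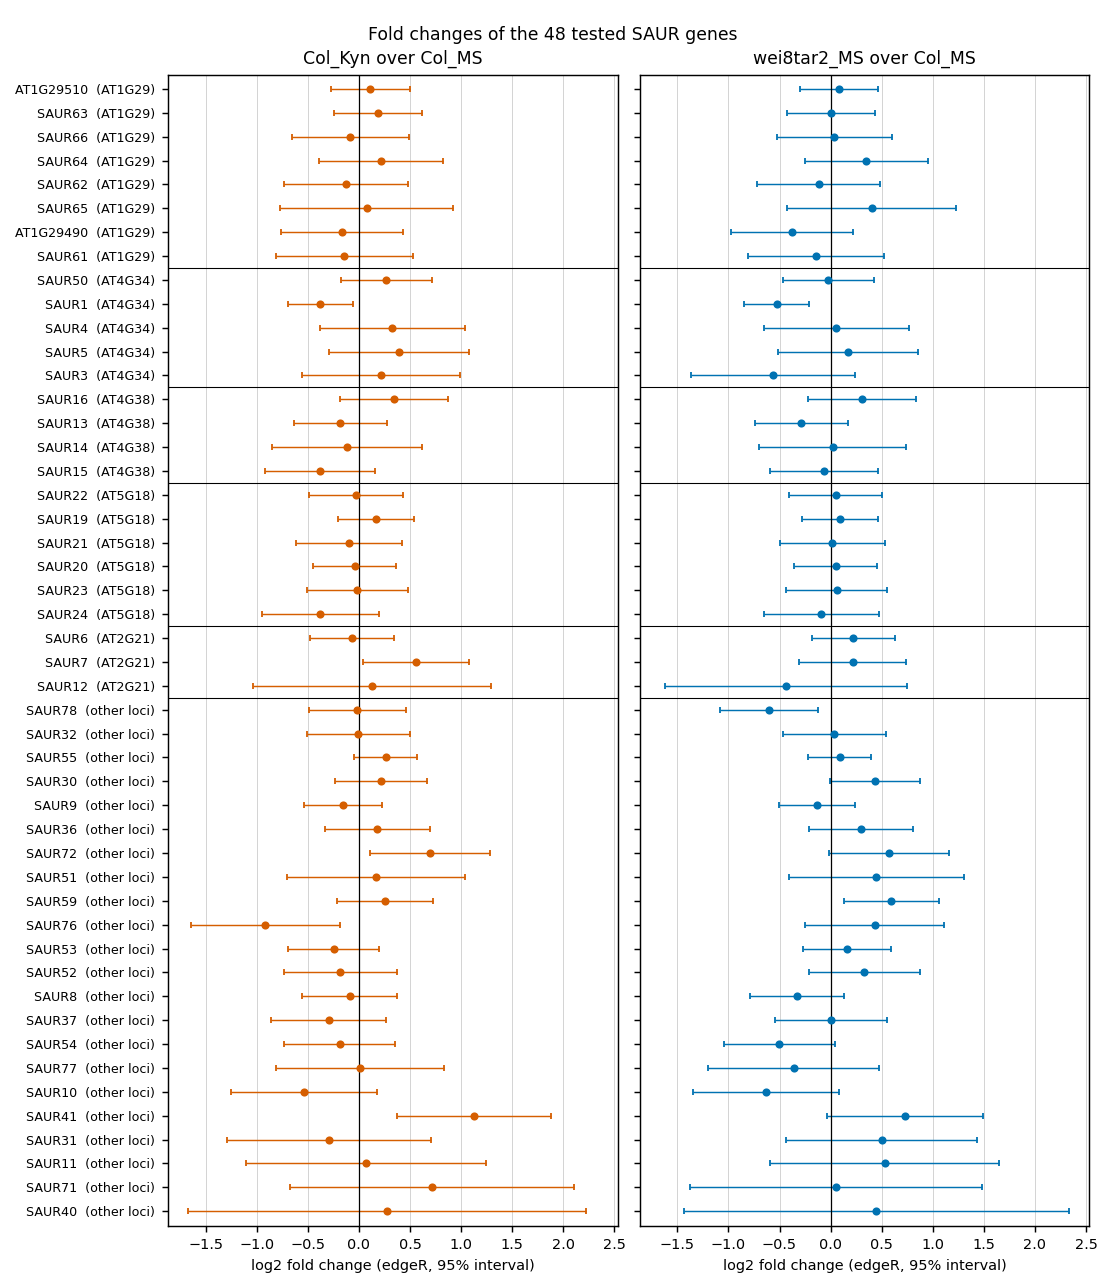
Log2 fold change with its 95% interval from edgeR (horizontal axis) for the 48 tested SAUR genes (rows, ordered by cluster and by mean level), for Col_Kyn over Col_MS (left) and wei8tar2_MS over Col_MS (right). The points lie between -0.91 and 1.13 on the left and between -0.63 and 0.73 on the right, and most intervals cross 0.

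Library by library, the 49 members summed to 449 and 450 CPM in Col_Kyn, 429 and 431 CPM in wei8tar2_MS, and 392 and 485 CPM in Col_MS. Both Col_MS libraries lay outside the range of the other 4, on opposite sides. The Col_MS pair was thus farther apart than any group mean was from another: the means were 449.7 ± 0.455 in Col_Kyn, 430.1 ± 1.26 in wei8tar2_MS and 438.1 ± 65.9 in Col_MS (SD, n = 2 each). With 2 libraries against 2, an exact permutation test of such a sum cannot go below p = 0.333, so none was run.

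The gap within Col_MS reached most members. Of the 48 tested, 40 (83.3%) were lower in Col_MS replicate 1 than in Col_MS replicate 2, against 49.9% of all tested genes, with a median log2 ratio of -0.43. The same count was 27 of 48 in Col_Kyn (median -0.08) and 28 of 48 in wei8tar2_MS (median -0.03). Those are shares of 56.25% and 58.3%, against 46.8% and 51.3% of all tested genes. Replicate 1 of Col_MS also held more transcript of 4 seed reserve genes, which summed to 28.8 and 1.89 CPM in Col_Kyn, 39.3 and 23.3 in wei8tar2_MS, and 71.7 and 16.5 in Col_MS, with EM1 at 0 in both Col_Kyn libraries. The 3 markers of apical hook and hypocotyl (HLS1, ATHB2 and EXPA8) summed to 206 and 239 CPM in Col_Kyn, 251 and 249 in wei8tar2_MS, and 194 and 190 in Col_MS. Their log2 fold changes over Col_MS were positive in 2 and negative in 1 in Col_Kyn, and positive in 1 and negative in 2 in wei8tar2_MS. The part of the seed reserve genes, of these markers and of the root markers above in the SAUR values was not tested.

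**Figure D3:**
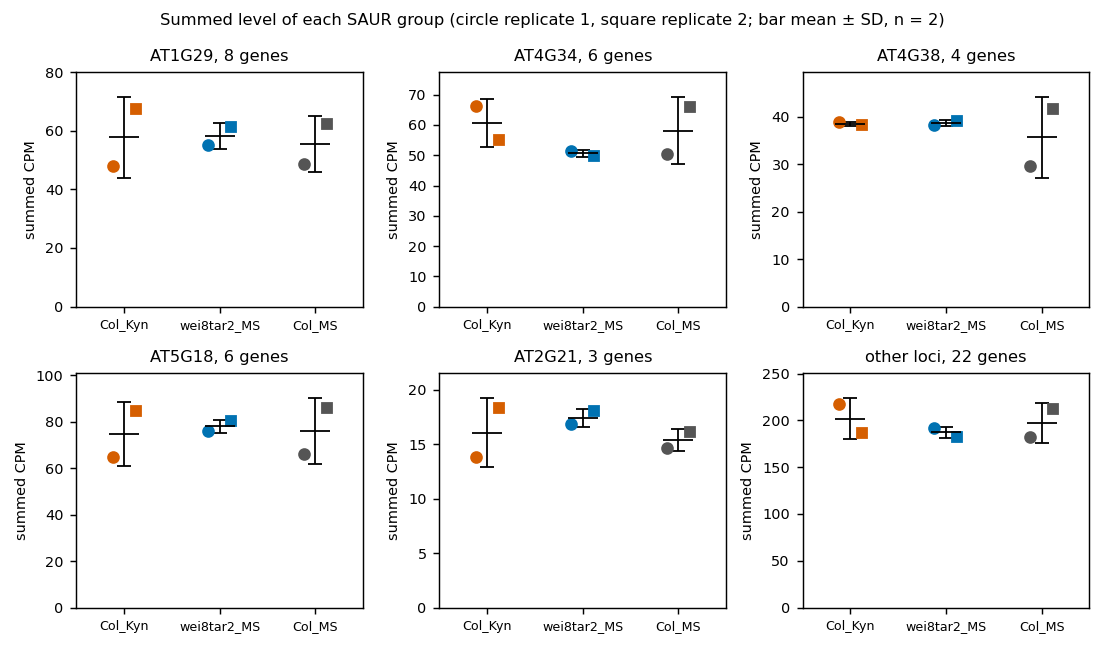
Summed TMM-scaled CPM of each SAUR cluster and of the 22 other loci (vertical axes, from 0) in Col_Kyn, wei8tar2_MS and Col_MS, with circles for replicate 1, squares for replicate 2, and bars for the mean ± SD (n = 2). Col_MS replicate 1 is the lower of its pair in each of the 6 panels, and the wei8tar2_MS pair lies closest together in all but the AT4G38 panel.

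SAUR19 to SAUR24, the AT5G18 cluster, are the genes of the subfamily whose stabilised proteins enlarge hypocotyl cells. Together they had 65.0 and 84.5 CPM in Col_Kyn, 76.2 and 80.1 in wei8tar2_MS, and 66.0 and 86.1 in Col_MS. The Col_Kyn and Col_MS pairs covered nearly the same range, and the wei8tar2_MS pair lay inside it. SAUR22 (AT5G18050) had 13.7 and 18.0 CPM in Col_Kyn, 15.9 and 17.5 in wei8tar2_MS, and 13.5 and 18.7 in Col_MS. SAUR19 (AT5G18010), which binds and inhibits PP2C clade D phosphatases, had 17.1 and 16.5 CPM in Col_Kyn, 15.8 and 16.1 in wei8tar2_MS, and 12.7 and 17.2 in Col_MS. SAUR21 (AT5G18030) had 11.1 and 17.8 CPM in Col_Kyn, 14.5 and 16.4 in wei8tar2_MS, and 13.9 and 16.6 in Col_MS. In all 3 genes the groups overlapped in both comparisons with Col_MS. Log2 fold changes over the 6 genes ran from -0.38 to 0.17 in Col_Kyn and from -0.09 to 0.09 in wei8tar2_MS. All 6 were lower in replicate 1 than in replicate 2 of Col_MS, and 5 of 6 in Col_Kyn and in wei8tar2_MS. Among all tested genes the shares were 49.9% in Col_MS, 46.8% in Col_Kyn and 51.3% in wei8tar2_MS.

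The AT1G29 cluster holds SAUR63, whose product promotes elongation of hypocotyls and stamen filaments, and its nearest relatives. The 8 genes summed to 48.0 and 67.4 CPM in Col_Kyn, 55.1 and 61.3 in wei8tar2_MS, and 48.7 and 62.3 in Col_MS, again with overlapping groups. AT1G29510 had 9.74 and 13.0 CPM in Col_Kyn, 11.01 and 11.1 in wei8tar2_MS, and 10.2 and 10.7 in Col_MS. SAUR63 (AT1G29440) had 8.68 and 12.2 CPM in Col_Kyn, 8.92 and 9.38 in wei8tar2_MS, and 8.80 and 9.44 in Col_MS. Both are among the genes with the fewest unique bases shown above, so their levels may be partial. SAUR66 (AT1G29500) had 6.41 and 9.89 CPM in Col_Kyn, 8.85 and 8.67 in wei8tar2_MS, and 7.13 and 9.94 in Col_MS. The wei8tar2_MS libraries lay above both Col_MS libraries in AT1G29510, SAUR64 and SAUR65, with log2 fold changes of 0.08 to 0.40 (edgeR adjusted p 0.481 to 0.825). Replicate 1 was lower than replicate 2 in 6 of the 8 genes in Col_Kyn, 7 of 8 in wei8tar2_MS and 8 of 8 in Col_MS. Among all tested genes the shares were 46.8%, 51.3% and 49.9% in the same order. Of 5 markers of light-grown leaves (CAB2, CAB3, LHB1B1, LHCB2.1 and RBCS1A), replicate 1 was lower in 5 in Col_Kyn, in 4 in wei8tar2_MS, where RBCS1A was the exception, and in 4 in Col_MS, where LHCB2.1 had 10.9 and 8.60 CPM. The markers summed to 3151 and 5383 CPM in Col_Kyn, 4205 and 4225 in wei8tar2_MS, and 3970 and 4300.3 in Col_MS. Their log2 fold changes over Col_MS were positive in 4 and negative in 1 in both other groups. Both wei8tar2_MS libraries lay above both Col_MS libraries in 4 of the 5 (80%, against 26.6% of all tested genes). Both Col_Kyn libraries did so in 0 of the 5, against 20.2% of all tested genes. The part of these markers in the SAUR values was not tested.

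The AT4G34 cluster holds SAUR50, one of the SAUR genes known from light-driven cotyledon opening, and SAUR1 to SAUR5. The 6 genes summed to 66.3 and 55.1 CPM in Col_Kyn, 51.4 and 49.9 in wei8tar2_MS, and 50.3 and 66.0 in Col_MS. SAUR50 (AT4G34760) had 35.8 and 29.9 CPM in Col_Kyn, 28.1 and 25.6 in wei8tar2_MS, and 21.9 and 32.6 in Col_MS. The Col_MS pair spanned all but 1 of the other libraries. SAUR1 (AT4G34770) had 17.8 and 15.7 CPM in Col_Kyn, 14.2 and 16.0 in wei8tar2_MS, and 20.3 and 23.3 in Col_MS. All 4 libraries of Col_Kyn and wei8tar2_MS lay below both Col_MS libraries. The log2 fold change of SAUR1 was -0.38 ± 0.14 in Col_Kyn (edgeR adjusted p = 0.233) and -0.53 ± 0.14 in wei8tar2_MS (adjusted p = 0.0940), neither past the threshold. SAUR4 (AT4G34800) had 3.97 and 4.35 CPM in Col_Kyn, 4.07 and 2.80 in wei8tar2_MS, and 2.47 and 4.14 in Col_MS. SAUR3 (AT4G34790) had 4.29 and 2.29 CPM in Col_Kyn, 1.84 and 2.09 in wei8tar2_MS, and 3.35 and 2.46 in Col_MS; its wei8tar2_MS libraries lay below the other 4 (log2 fold change over Col_MS -0.56 ± 0.34, edgeR adjusted p = 0.394). SAUR2 had 5 reads in all, with 0.0641 and 0 CPM in Col_Kyn, 0 and 0.118 in wei8tar2_MS, and 0 in both Col_MS libraries, all at or within the limit that a count of 0 allows.

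In the AT4G38 cluster, SAUR16 has also been tied to cotyledon opening, and SAUR15 (first known as SAUR-AC1) is an early auxin-response gene. The 4 genes summed to 38.9 and 38.3 CPM in Col_Kyn, 38.3 and 39.1 in wei8tar2_MS, and 29.7 and 41.7 in Col_MS, so that the Col_MS pair enclosed both other groups. SAUR16 (AT4G38860) had 25.1 and 21.8 CPM in Col_Kyn, 24.5 and 21.4 in wei8tar2_MS, and 13.9 and 23.2 in Col_MS. Col_MS replicate 1 alone stood apart. Without Col_MS replicate 2 SAUR16 passed the threshold in Col_Kyn (log2 fold change 0.77, edgeR adjusted p = 0.0442) and in wei8tar2_MS (0.75, adjusted p = 0.0381), whereas with all libraries the values were 0.34 ± 0.23 (adjusted p = 0.482) and 0.31 ± 0.23 (adjusted p = 0.482). SAUR13 (AT4G38825) had 7.05 and 6.29 CPM in Col_Kyn, 5.21 and 7.25 in wei8tar2_MS, and 7.64 and 7.55 in Col_MS. SAUR14 (AT4G38840) had 4.20 and 7.55 CPM in Col_Kyn, 5.36 and 7.29 in wei8tar2_MS, and 5.24 and 7.23 in Col_MS. SAUR15 (AT4G38850) had 2.47 and 2.63 CPM in Col_Kyn, 3.23 and 3.11 in wei8tar2_MS, and 2.87 and 3.76 in Col_MS. Col_Kyn thus lay below the other libraries for SAUR15, with a log2 fold change over Col_MS of -0.38 ± 0.23 (edgeR adjusted p = 0.442). SAUR13 lay below Col_MS in both other groups (log2 fold changes -0.18 ± 0.20 and -0.29 ± 0.20, edgeR adjusted p = 0.673 and 0.447), and the groups overlapped for SAUR14. Most of the SAUR13 transcript overlaps an antisense neighbour, so its reads may belong to either gene.

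The AT2G21 cluster had the lowest sum of the 5, with 13.8 and 18.3 CPM in Col_Kyn, 16.8 and 18.0 in wei8tar2_MS, and 14.7 and 16.1 in Col_MS. SAUR6 (AT2G21210) had 9.67 and 13.4 CPM in Col_Kyn, 13.3 and 14.8 in wei8tar2_MS, and 11.7 and 12.4 in Col_MS. SAUR7 (AT2G21200) had 3.14 and 3.03 CPM in Col_Kyn, 2.42 and 2.44 in wei8tar2_MS, and 2.18 and 2.00 in Col_MS. The 3 groups did not overlap for SAUR7, and its log2 fold change was 0.56 ± 0.22 in Col_Kyn (edgeR adjusted p = 0.266) and 0.22 ± 0.22 in wei8tar2_MS (adjusted p = 0.627). SAUR6 and SAUR7 overlap each other on the genome, so reads of the shared bases cannot be assigned. SAUR12 (AT2G21220) had 0.993 and 1.89 CPM in Col_Kyn, 1.14 and 0.749 in wei8tar2_MS, and 0.800 and 1.76 in Col_MS, with overlapping groups.

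Among the 22 other loci, SAUR76, SAUR77 and SAUR78 encode proteins reported to interact with ethylene receptors. The 22 loci summed to 217 and 186 CPM in Col_Kyn, 192 and 183 in wei8tar2_MS, and 182 and 213 in Col_MS, with overlapping groups. SAUR78 (AT1G72430, chromosome 1, 27264602 to 27265806) had 87.1 and 53.8 CPM in Col_Kyn, 48.1 and 45.8 in wei8tar2_MS, and 74.2 and 68.6 in Col_MS. Both wei8tar2_MS libraries lay below all others, and Col_Kyn spanned the Col_MS pair. The log2 fold change of SAUR78 was -0.60 ± 0.20 in wei8tar2_MS over Col_MS (edgeR adjusted p = 0.160) and -0.01 ± 0.20 in Col_Kyn over Col_MS (adjusted p = 0.979). It passed the threshold in wei8tar2_MS when the Col_Kyn libraries were left out of the fit (-0.59, adjusted p = 0.0492) or without Col_Kyn replicate 1 (-0.60, adjusted p = 0.0485).

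SAUR76 (AT5G20820, chromosome 5, 7046747 to 7047446) had 3.33 and 2.12 CPM in Col_Kyn, 7.16 and 7.02 in wei8tar2_MS, and 3.89 and 6.60 in Col_MS. Col_Kyn lay below and wei8tar2_MS above Col_MS, without overlap. Its log2 fold changes were -0.91 ± 0.31 in Col_Kyn over Col_MS (edgeR adjusted p = 0.215) and 0.43 ± 0.29 in wei8tar2_MS over Col_MS (adjusted p = 0.443). Set directly against Col_Kyn, wei8tar2_MS differed by 1.35 ± 0.31, the largest value among the members in that comparison (adjusted p = 0.643; DESeq2 adjusted p = 0.0696). SAUR77 ranged from 1.87 to 3.76 CPM over the 6 libraries, with overlapping groups.

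The SAUR41 subfamily, SAUR40, SAUR41, SAUR71 and SAUR72, is known for cell expansion when its members are overexpressed. SAUR41 (AT1G16510, chromosome 1, 5644572 to 5645443) had 2.59 and 1.72 CPM in Col_Kyn, 1.58 and 1.73 in wei8tar2_MS, and 0.909 and 1.09 in Col_MS. SAUR72 (AT3G12830, chromosome 3, 4078651 to 4079627) had 6.79 and 6.75 CPM in Col_Kyn, 7.12 and 5.28 in wei8tar2_MS, and 3.27 and 5.06 in Col_MS. Both genes had all 4 libraries of Col_Kyn and wei8tar2_MS above both Col_MS libraries. SAUR41 had the largest fold change of any tested member in both comparisons with Col_MS, which share its libraries: 1.13 ± 0.32 in Col_Kyn (edgeR adjusted p = 0.169) and 0.73 ± 0.33 in wei8tar2_MS (adjusted p = 0.261). SAUR72 stood at 0.70 ± 0.25 in Col_Kyn (adjusted p = 0.233) and 0.57 ± 0.25 in wei8tar2_MS (adjusted p = 0.250). SAUR71 (AT1G56150, chromosome 1, 21017311 to 21018122) had 0.865 and 1.54 CPM in Col_Kyn, 0.881 and 0.591 in wei8tar2_MS, and 0.327 and 1.09 in Col_MS. SAUR40 had between 0.0727 and 0.667 CPM and its groups, like those of SAUR71, overlapped; SAUR40, with 70 reads in all, and SAUR71, with 133, had the widest intervals.

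After SAUR78 the most abundant of the single loci were SAUR32, SAUR55 and SAUR30. SAUR32 (AT2G46690, chromosome 2, 19180705 to 19181600), known for its expression in the apical hook, had 27.6 and 25.1 CPM in Col_Kyn, 27.9 and 26.4 in wei8tar2_MS, and 19.9 and 33.1 in Col_MS. SAUR55 (AT5G50760, chromosome 5, 20644525 to 20645698) had 25.5 CPM in both Col_Kyn libraries, 24.1 and 21.0 in wei8tar2_MS, and 19.4 and 23.1 in Col_MS. SAUR30 (AT5G53590, chromosome 5, 21771811 to 21772794) had 11.8 and 15.6 CPM in Col_Kyn, 15.6 and 16.0 in wei8tar2_MS, and 10.0 and 13.4 in Col_MS. The Col_Kyn pair lay above Col_MS for SAUR55 and the wei8tar2_MS pair above it for SAUR30, with log2 fold changes of 0.26 ± 0.13 (edgeR adjusted p = 0.359) and 0.43 ± 0.19 (adjusted p = 0.250). SAUR9 (AT4G36110, chromosome 4, 17089934 to 17090873), another inhibitor of PP2C clade D phosphatases, had 9.16 and 9.67 CPM in Col_Kyn, 8.33 and 10.8 in wei8tar2_MS, and 10.4 and 10.5 in Col_MS. SAUR36 (AT2G45210, chromosome 2, 18641563 to 18642739), known from auxin-promoted leaf senescence, had 8.27 and 7.03 CPM in Col_Kyn, 8.74 and 7.92 in wei8tar2_MS, and 5.42 and 8.15 in Col_MS. Neither gene separated the groups in wei8tar2_MS, and in Col_Kyn SAUR9 lay below Col_MS, with a log2 fold change of -0.16 ± 0.16 (edgeR adjusted p = 0.665).

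SAUR59 (AT3G60690, chromosome 3, 22434864 to 22436053), the member with the G-box match, had 5.03 and 4.86 CPM in Col_Kyn, 7.16 and 5.36 in wei8tar2_MS, and 4.15 and 4.14 in Col_MS. Every library of both other groups lay above Col_MS, with 0.26 ± 0.20 in Col_Kyn (edgeR adjusted p = 0.556) and 0.60 ± 0.20 in wei8tar2_MS (adjusted p = 0.154). SAUR10 (AT2G18010, chromosome 2, 7833782 to 7834653) had 1.95 and 2.34 CPM in Col_Kyn, 1.87 and 2.13 in wei8tar2_MS, and 2.33 and 3.86 in Col_MS; its log2 fold change of -0.63 ± 0.30 in wei8tar2_MS was the lowest of the members in that comparison (adjusted p = 0.291). SAUR51 (AT1G75580, chromosome 1, 28377377 to 28378310) had 3.36 and 7.15 CPM in Col_Kyn, 6.68 and 5.80 in wei8tar2_MS, and 3.49 and 5.65 in Col_MS. The wei8tar2_MS pair lay above Col_MS for SAUR51, while Col_Kyn spanned it. SAUR52 (AT1G75590, chromosome 1, 28382813 to 28383769) had 3.94 and 3.03 CPM in Col_Kyn, 4.77 and 5.28 in wei8tar2_MS, and 3.38 and 4.60 in Col_MS. SAUR31 (AT4G00880, chromosome 4, 366373 to 367274) had 0.897 and 1.43 CPM in Col_Kyn, 1.73 and 2.21 in wei8tar2_MS, and 0.946 and 1.83 in Col_MS. Both had wei8tar2_MS above Col_Kyn without overlap, with log2 fold changes of 0.51 ± 0.24 and 0.79 ± 0.42 (neither called by edgeR).

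**Figure D4:**
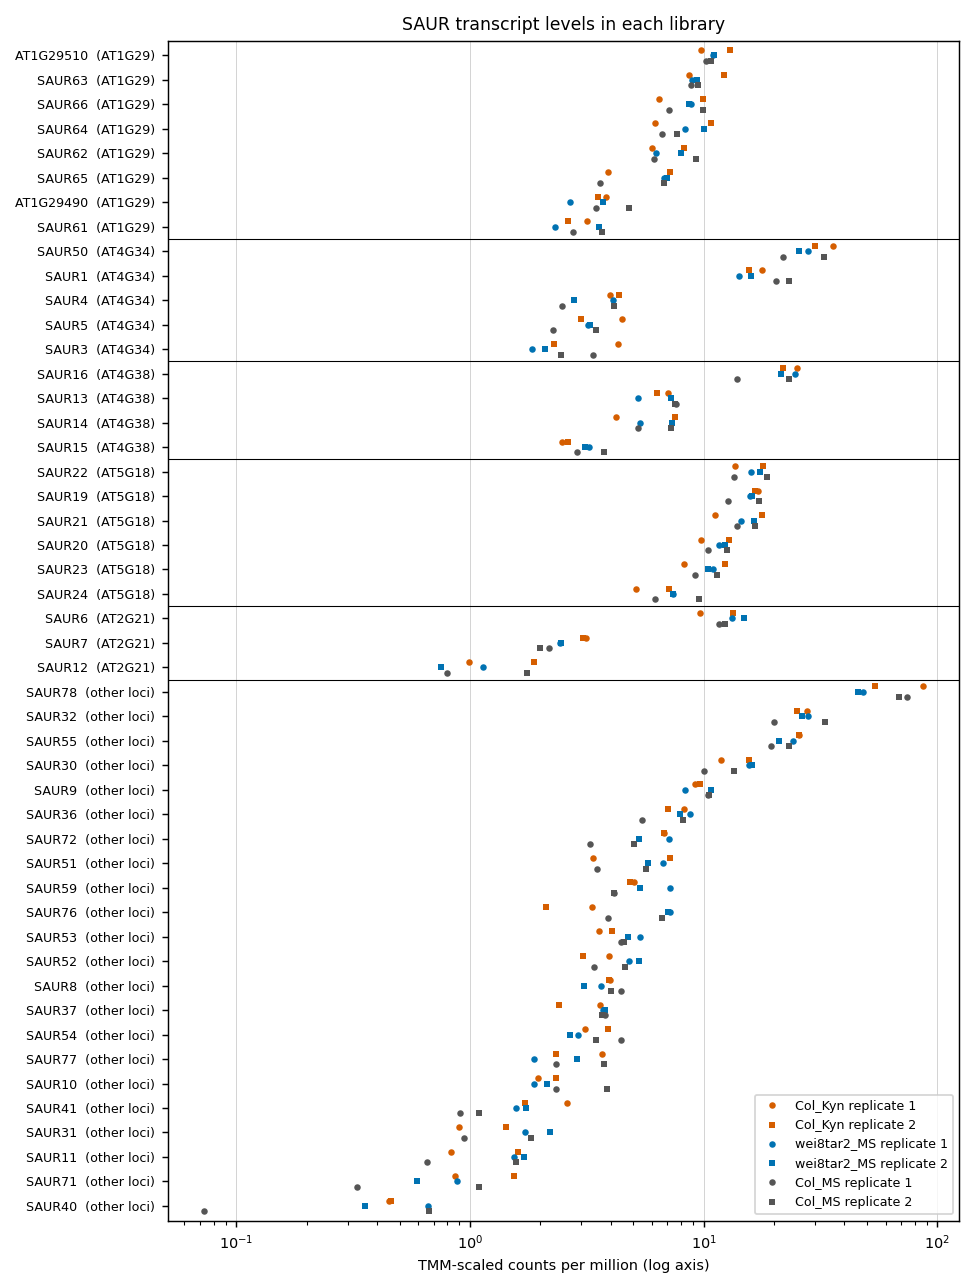
TMM-scaled CPM on a log axis (horizontal) of 48 SAUR genes (rows, by cluster and mean level) in each library, with Col_Kyn, wei8tar2_MS and Col_MS in separate colours and circles and squares for replicates 1 and 2; SAUR2, with 5 reads in all, is not drawn. Levels run from 0.0727 CPM for SAUR40 to 87.1 CPM for SAUR78, and the 2 Col_MS libraries of a gene are often as far apart as the groups.

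The 16 tested members not given library by library had 0.0727 to 12.8 CPM. Their log2 fold changes ran from -0.38 to 0.39 in Col_Kyn over Col_MS and from -0.50 to 0.53 in wei8tar2_MS over Col_MS. In wei8tar2_MS over Col_Kyn they ran from -0.37 to 0.46. Like the other members, none of the 16 was called by edgeR or DESeq2 (0 at an unadjusted edgeR p under 0.05 in each comparison). That 0 against Col_MS was fixed in advance, because every member with such a p was named. The ranges were cut by the same choice, which took out the largest and smallest log2 fold changes of each comparison. Against Col_Kyn, the members with such a p, SAUR76 and SAUR78, were among those extremes. The groups overlapped in 13, 11 and 11 of the 16, and in 12025, 9482 and 13738 of all 21326 tested genes. This count, too, is of members left over after the choice of named genes.

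Counted over the members, both libraries of Col_Kyn lay above both of Col_MS in 5 of 48 and below in 8 of 48, while 20.2% of all tested genes lay above and 23.4% below. The wei8tar2_MS libraries lay above Col_MS in 13 of 48 and below in 7, against 26.6% and 29% of all tested genes. Against Col_Kyn, wei8tar2_MS lay above in 9 and below in 8, with 16.7% and 18.8% of all tested genes.

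Levels per kilobase of listed gene length give an order of the members that depends in part on the length used. SAUR78 led with 87.6 CPM per kilobase as a mean over all libraries, followed by SAUR50 with 41.6 and SAUR32 with 36.2. These 3 kept the first 3 places when the transcript length of TAIR10.1 was used instead, at 52.2, 32.4 and 29.8 CPM per kilobase. Further down the order shifted: SAUR4 went from place 20 to 30, SAUR10 from 29 to 42 and SAUR20 from 11 to 6. By group, SAUR50 had 47.2 ± 6.02 CPM per kilobase in Col_Kyn, 38.6 ± 2.54 in wei8tar2_MS and 39.2 ± 10.9 in Col_MS (SD, n = 2 each), so its mean differences were within the Col_MS spread. At the low end stood SAUR40, with 0.728 CPM per kilobase, and SAUR2, with 0.0950. The listed length of SAUR8 is 2546 bases, against 893 in the TAIR10.1 transcript, so that its level is 1.51 CPM per kilobase by the listed length and 4.31 by the transcript. For SAUR24 the listed length is 272 bases, against 626.

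Other genes of auxin response and of SAUR action were counted in the same fit, in lists written with earlier results of these data in view. Of 7 tested genes of the GH3 family, some of whose enzymes join auxin to amino acids, edgeR called 2 lower in Col_Kyn and in wei8tar2_MS. They were WES1 (GH3.5) and DFL1 (GH3.6, named for its call after its values were seen). Among all tested genes 0.366% and 1.08% were called. Log2 fold changes were negative in 5 and 6 of the 7. An unadjusted edgeR p under 0.05 was found in 6 (1 of them higher) and 5, against 17% and 20.6% of all tested genes. The 1 that was higher in Col_Kyn was PBS3, with 67 reads in all and a log2 fold change of 1.25 ± 0.53. DESeq2 called 3 in each, against 3.4% and 5.93% of all the genes it tested. WES1 had 57.9 and 45.6 CPM in Col_Kyn, 52.1 and 56.1 in wei8tar2_MS, and 140 and 106 in Col_MS (log2 fold changes -1.25 ± 0.17 and -1.19 ± 0.17, edgeR adjusted p = 0.0414 and 0.0405). In Col_Kyn, the calls of WES1 and DFL1 were lost when any 1 library other than Col_MS replicate 2 was left out, or with only the 2 groups compared (log2 fold changes of WES1 from -1.43 to -1.03, edgeR adjusted p from 0.0749 to 0.151). In wei8tar2_MS, both were lost without Col_MS replicate 1 or without either wei8tar2_MS library (WES1 from -1.24 to -0.97, edgeR adjusted p from 0.0753 to 0.458). The median of the GH3 list was -1.25 in Col_Kyn and -1.20 in wei8tar2_MS. Among 26 tested Aux/IAA repressor genes edgeR and DESeq2 called 0 in either comparison, 2 and 3 had an unadjusted p under 0.05, and the medians were -0.20 and -0.08. The 2 and 3 are shares of 7.69% and 11.5%, against 17% and 20.6% of all tested genes.

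Of 9 tested PP2C clade D phosphatase genes, edgeR and DESeq2 called 0 in Col_Kyn and in wei8tar2_MS, with 0 and 1 at an unadjusted p under 0.05 and medians of 0.09 and 0.08. The most abundant were AT4G38520, AT3G51370 and AT3G17090, with log2 fold changes between -0.06 and 0.22. Of 10 tested plasma membrane proton pump genes, edgeR and DESeq2 called 0 in both, with 1 in each at an unadjusted p under 0.05 and medians of 0.03 and -0.05. Among all tested genes, 17% in Col_Kyn and 20.6% in wei8tar2_MS had an unadjusted edgeR p under 0.05. HA2, the most abundant pump gene, had 3212 and 2702 CPM in Col_Kyn, 2606 and 2659 in wei8tar2_MS, and 2576 and 2583 in Col_MS. Its log2 fold changes were 0.20 ± 0.14 and 0.03 ± 0.14 (edgeR adjusted p = 0.504 and 0.932).

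Of 16 tested regulators of SAUR genes, among them auxin receptors, activating ARFs, BZR1, BES1, PIFs and HY5, edgeR called 0 in both comparisons with Col_MS, with 4 in each at an unadjusted p under 0.05 and medians of 0.09 and 0.08. DESeq2 called 0 in Col_Kyn and 2 in wei8tar2_MS, against 3.4% and 5.93% of all the genes it tested. The 4 in each comparison are 25% of the list, against 17% and 20.6% of all tested genes. The receptor gene TIR1 had log2 fold changes of -0.02 ± 0.12 in Col_Kyn and 0.06 ± 0.12 in wei8tar2_MS, and ARF6, an activator of auxin-response genes, 0.23 ± 0.11 in both (edgeR adjusted p = 0.352 and 0.289). Of 28 SAUR loci outside the members, 27 had a read and 20 were tested, and edgeR called 0, with 3 and 6 at an unadjusted p under 0.05 and 1 and 3 called by DESeq2. Their shares at an unadjusted edgeR p under 0.05 were 15% and 30%, against the same 17% and 20.6%. Their medians were -0.16 in Col_Kyn and 0.09 in wei8tar2_MS. The most abundant of them, AT4G09530, had 10.2 and 6.52 CPM in Col_Kyn, 5.21 and 5.99 in wei8tar2_MS, and 11.2 and 11.3 in Col_MS, with log2 fold changes of -0.41 ± 0.22 (edgeR adjusted p = 0.373) and -1.004 ± 0.22 (adjusted p = 0.0746).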

How the data were processed

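Messenger RNA of whole etiolated seedlings was sequenced in 6 libraries. Per the submitters' processing notes the aligner was TopHat 1.3.0 and the build TAIR10. Which program counted the reads, with what strand setting, and how long they were is not given in the sources used here. Each deposited table gives raw counts of uniquely mapped reads per gene, per the file headers, and a gene absent from a table was given 0. The deposited RPKM values of the authors were recomputed from the counts to a relative difference of at most 8.46e-14 and not used further.

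Counts were fitted with edgeR 4.0.16 in R 4.3.3 (TMM factors 0.964 to 1.03, filterByExpr by group, quasi-likelihood F-test, all 6 libraries, 1 coefficient per group), with Benjamini-Hochberg adjustment over 21326 genes and a threshold of 0.05. The script was tested on simulated data. The standard error of a log2 fold change is its size over the root of F, and ± after CPM is an SD. Ratios within groups used CPM plus 0.1. Floors are 3 reads and hold for counting error alone, as PCR copies could not be separated. Library totals were 31817638 and 18143395 reads in Col_Kyn, 26943103 and 25129503 in wei8tar2_MS, and 26753309 and 28243135 in Col_MS.

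Gene models and sequences are from RefSeq TAIR10.1, matched by locus name. Unique windows are exact and counted over both strands, and coding identity is from global alignment in Biopython 1.88, over the longer sequence.

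Replicate numbers carry no stated pairing. Deviations of equal numbers correlated at 0.202, 0.0220 and -0.0390, so the libraries were not paired. Alternatives were DESeq2 1.42.0, DESeq2 size factors in edgeR, no filter on low counts, only the 2 groups compared, a replicate block, CPM without TMM factors and each library left out. A length from TAIR10.1 was added after the data were seen.

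The members and lists were chosen with earlier results of these data known. Members named with all values are the 3 most abundant of each cluster, the 8 most abundant other loci, those with an unadjusted p under 0.05 against Col_MS, and the 3 largest and 3 smallest log2 fold changes of each comparison.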

Additional observations from a re-analysis of the deposited data

How the results depend on the processing

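With DESeq2 size factors, without a low-count filter, with the replicate block and with DESeq2, 0 SAUR genes were called in each comparison. With only the 2 groups compared, 1 (SAUR78) was called in wei8tar2_MS against Col_MS and 0 elsewhere. Leaving out 1 library at a time gave 0 to 1 called SAUR genes in Col_Kyn against Col_MS, 0 to 1 in wei8tar2_MS against Col_MS and 0 in wei8tar2_MS against Col_Kyn. The median log2 fold change of the members then ran from -0.17 to 0.23, from -0.11 to 0.29 and from -0.09 to 0.07.

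Counts over all genes moved more, given here for Col_Kyn against Col_MS, wei8tar2_MS against Col_MS and wei8tar2_MS against Col_Kyn, where the main counts were 78, 230 and 6. DESeq2 called 735, 1313 and 55 genes. No low-count filter gave 409, 1113 and 26, the replicate block 130, 367 and 12, and only the 2 groups compared 0, 352 and 11. Leaving out 1 library gave 0 to 1080, 4 to 1719 and 4 to 17, with the highest counts of both comparisons with Col_MS reached without Col_MS replicate 2 (1080 and 1719) against 42 and 52 without Col_MS replicate 1. Where 1 library of a group was left, it was assumed to vary like the other groups. The causes were not tested. The block did not change the call of any SAUR gene. CPM without TMM factors moved no mean of a named gene or cluster by more than 3.07%, but the group means of the sums differed by little. Without the factors the 49 members had mean sums of 437.3 CPM in Col_Kyn, 434.5 in wei8tar2_MS and 445.6 in Col_MS. Col_MS was then the highest, whereas Col_Kyn was the highest with the factors (449.7, 430.1 and 438.1).

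Members with few reads are limited by depth: SAUR40 had 70 reads over all libraries and SAUR2 had 5.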

Other observations

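Among the SAUR loci outside the members, AT5G10990, chosen after its values were seen, was lower in both other groups than in Col_MS. It had 0.481 and 0.572 CPM in Col_Kyn, 0.624 and 0.670 in wei8tar2_MS, and 1.93 and 2.25 in Col_MS. All 4 libraries of Col_Kyn and wei8tar2_MS lay below both Col_MS libraries, with log2 fold changes of -1.999 ± 0.34 in Col_Kyn (edgeR adjusted p = 0.0770) and -1.68 ± 0.32 in wei8tar2_MS (adjusted p = 0.0637), neither past the threshold. AT3G53250 went the other way (1.38 ± 0.48 and 1.58 ± 0.47), as did AT2G28085 (4.43 ± 0.94 and 3.10 ± 1.08), which had 35 reads in all. Neither was called by edgeR. Of the 20 tested loci, 14 had negative and 6 positive log2 fold changes in Col_Kyn, and 9 and 11 in wei8tar2_MS. SAUR26 to SAUR29, a tandem group on chromosome 3, had 3.30 to 4.84 CPM in Col_Kyn replicate 1 and 5.38 to 6.98 in Col_Kyn replicate 2, 4.81 to 6.39 CPM in wei8tar2_MS replicate 1 and 5.40 to 7.45 in wei8tar2_MS replicate 2, and 4.47 to 5.13 CPM in Col_MS replicate 1 and 5.93 to 7.90 in Col_MS replicate 2. Each of the 4 genes was lower in replicate 1 in all 3 groups, like the AT5G18 and AT1G29 sums.

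PIF4 and PIL6 (PIF5), transcription factors known to act in hypocotyl growth and chosen after their values were seen, had higher libraries in Col_Kyn and wei8tar2_MS than in Col_MS. PIF4 had 4.58 and 5.20 CPM in Col_Kyn, 6.39 and 5.40 in wei8tar2_MS, and 3.49 and 2.46 in Col_MS. Its log2 fold changes were 0.71 ± 0.23 in Col_Kyn and 0.99 ± 0.23 in wei8tar2_MS (edgeR adjusted p = 0.206 and 0.0793). PIL6 had 3.91 and 6.12 CPM in Col_Kyn, 5.69 and 6.15 in wei8tar2_MS, and 2.98 and 3.06 in Col_MS, with log2 fold changes of 0.71 ± 0.25 and 0.97 ± 0.24 (edgeR adjusted p = 0.222 and 0.0899). Of the same list, PIF3 did not share this rise, and PIL5 shared it in wei8tar2_MS alone. PIF3, at a mean of 65.0 CPM, lay below both Col_MS libraries in all 4 others (-0.30 ± 0.12 and -0.14 ± 0.12). PIL5 overlapped Col_MS in Col_Kyn and lay above it in wei8tar2_MS (0.07 ± 0.16 and 0.36 ± 0.16).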
